A study of Mus musculus with 9 samples.

Results

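The Hox genes encode homeodomain transcription factors that give cells their position along the body axis, and 38 of them were followed here among 21887 protein-coding genes. They lie in 4 clusters, with 10 members in Hoxa on chromosome 6, 10 in Hoxb on chromosome 11, 9 in Hoxc on chromosome 15 and 9 in Hoxd on chromosome 2. The members are a list of gene symbols, defined without a threshold on any value, though the set was picked with earlier results of these data known. An interval was assigned to a member when it overlapped the gene's RefSeq span widened by 5 kb on each side. The data are chromatin immunoprecipitations with sequencing (ChIP-seq) of KDM6A in Sv129 mouse embryonic stem cells. Control cells are labelled WT, and cells given 0.12 µM MTX for 24 h are labelled folate deficiency under the heading of genotype. All were grown on gelatin with leukemia inhibitory factor and serum, and the libraries of every group were amplified over 30 cycles. There were 2 KDM6A libraries from control cells, 2 from MTX cells, and 1 IgG library from MTX cells, numbered 1, in which a nonspecific antibody measures background. The 4 inputs of the series are not analysed here as libraries of their own. The labels name no separate cultures, so the spread between libraries of a group may be technical, and these files hold no expression values against which the stem cell label could be checked.

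In vertebrates the order of Hox genes along a cluster matches the order of their expression domains, with genes of low number active towards the head and genes of high number towards the tail. In pluripotent cells the clusters are classic targets of Polycomb repressive complex 2, which places methyl groups on lysine 27 of histone H3. KDM6A, also called UTX, is a demethylase that removes this mark and works with the KMT2C and KMT2D methyltransferases. It has been studied at Hox genes as a factor of their activation during differentiation.

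The deposited lists held 21228 to 44838 intervals per library, with 3251202 to 4192029 immunoprecipitated reads inside them, and the full depth of the libraries is unknown. The lists have no header, and the meaning of their columns was worked out from the values. By that reading each interval carries a read count of the immunoprecipitation, a read count of a background library, and a fold that is their ratio times 1 constant per list. The median fold of a whole list was 1.39 to 1.62. Chromosome 11, which carries Hoxb, held 12.5 to 24.5% of the intervals of a KDM6A list and 16.5% of the IgG list. At the 52 intervals with identical borders in the IgG and MTX 1 lists, background reads were equal in 52, so both lists share their background.

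In the full lists, KDM6A intervals lay at Hox genes mainly in the first library of each group. Control library 1 had an interval within 5 kb of 14 of the 38 members (36.8%, exact 95% interval 21.8 to 54.0%), beside 47.1% of all protein-coding genes. Control library 2 had one at 3 members (7.89%, 1.66 to 21.4%), beside 26.1% of all genes. MTX library 1 had one at 15 members (39.5%, 24.0 to 56.6%), beside 33.5%. MTX library 2 had one at 1 member (2.63%, 0.0666 to 13.8%), beside 30.8%. The IgG library had one at 13 members (34.2%, 19.6 to 51.4%), beside 27.5%. The full lists of the libraries numbered 1, IgG included, thus stood close together in their number of Hox genes. Both libraries numbered 2 stood below them and below the share over all genes. The control 1 list was the longest, with 44838 intervals. When each list was cut to its best 21228, the counts were 1, 3, 14, 1 and 9 in the order above. Control 1 then no longer stood with MTX 1 and IgG. The exact 95% intervals cover counting error only, and neighbouring members can share 1 interval.

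Hox genes are short, so their windows hold fewer bases than those of most genes. Their median span was 3.72 kb against 17.2 kb over all protein-coding genes, and 32 of the 38 were under 10 kb. Of these 32, control libraries 1 and 2 had an interval at 31.3% and 9.38%, MTX libraries 1 and 2 at 37.5% and 3.13%, and IgG at 28.1%. All protein-coding genes under 10 kb had one in 26.0%, 11.4%, 16.8%, 13.6% and 14.1% in the same order. Counted by gene, beside genes of like span, MTX library 1 and IgG were above the background and MTX library 2 was below it. Control library 1 was nearer to it (31.3% against 26.0%), and control library 2 was nearest (9.38% against 11.4%). Control 2 thus stood well below genes of all lengths but close to short genes. These differences were not tested, and the cut at 10 kb was chosen after seeing the data. Neighbouring members can share 1 interval. Of 21 KDM6A intervals at Hox genes, 12 had 2 or more members within 5 kb. The 13 IgG members came from 8 intervals. By bases, the 38 Hox windows were covered over 8.003% in MTX 1, 0.796% in MTX 2 and 5.407% in IgG. All protein-coding gene windows were covered over 4.558%, 5.369% and 4.451%.

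**Figure D1:**
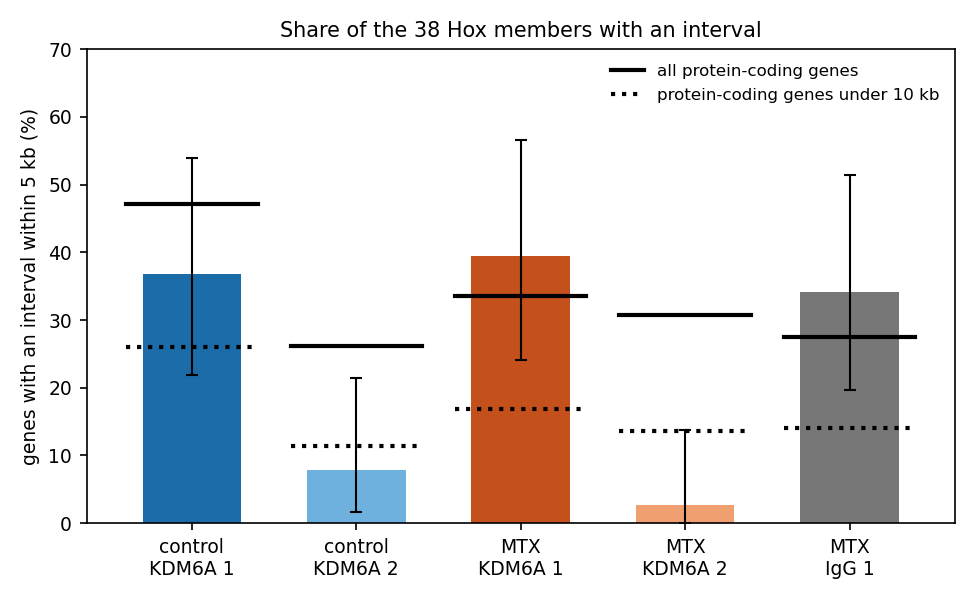
Bars give the percentage of the 38 Hox members with an interval within 5 kb in each library, with exact 95% intervals; solid lines give the same percentage over all protein-coding genes and dotted lines over protein-coding genes under 10 kb. Control 1 (36.8%), MTX 1 (39.5%) and IgG (34.2%) are high, and control 2 (7.89%) and MTX 2 (2.63%) are low.

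No Hox gene had an interval in both control libraries, in both MTX libraries or in all 4 KDM6A libraries. Over all protein-coding genes these shares were 20.8%, 19.8% and 13.2%. They take genes of every length, and shares over genes under 10 kb were not computed for combinations of libraries. The Hox counts could also not exceed the 3 members of control 2 or the 1 member of MTX 2. Control 1 and MTX 1 had 5 members in common (13.2%, against 25.6% of all genes), namely Hoxb3, Hoxd13, Hoxd12, Hoxd11 and Hoxd3. In all, 25 members (65.8%, against 61.6% of all genes) had an interval of at least 1 KDM6A library.

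The comparison of MTX with control cells asks whether KDM6A at Hox genes changed over 24 h. Members with an interval numbered 14 and 3 in the control libraries and 15 and 1 in the MTX libraries, or 8.5 ± 7.78 and 8.0 ± 9.90 (SD, n = 2). The groups overlapped. The difference of -0.5 members was smaller than the spread between libraries of a group (two-sided exact permutation test, p = 1.0). With 2 libraries against 2 this exact test cannot go below p = 0.333. The bases of Hox windows under intervals came to 25.6 and 3.40 kb in control cells and 35.6 and 3.54 kb in MTX cells, of 445 kb in all. As shares these were 5.757% and 0.764% in control 1 and 2, and 8.003% and 0.796% in MTX 1 and 2. All protein-coding gene windows were covered over 6.755%, 4.399%, 4.558% and 5.369% in that order. In IgG the Hox share was 5.407%, beside 4.451%. The place of the Hox shares among gene windows was not tested. The mean covered bases were 14.5 ± 15.7 kb in control and 19.6 ± 22.7 kb in MTX cells (SD, n = 2), again overlapping (exact permutation test, p = 0.667). These 2 measures and the median fold were the 3 group comparisons made, and none of the p-values would pass after adjustment, since none passed before it.

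A total of 21 KDM6A intervals lay at Hox genes, 9 in control 1, 1 in control 2, 10 in MTX 1 and 1 in MTX 2, and 17 of them overlapped a member itself. Of these 21, 13 had a deposited adjusted p under 0.05 (read from the values as a Poisson test of the immunoprecipitated against the scaled background reads). By library this was 5 of 9 in control 1, where 84.9% of the whole list passed, and 6 of 10 in MTX 1, where 78.7% passed. It was 1 of 1 in control 2 and MTX 2, beside 78.5% and 83.7%, and 5 of 8 in IgG, beside 83.7%. In both first KDM6A libraries, and in IgG as well, the share was below that of the list, a difference that was not tested. Counted by gene, 9, 3, 12, 1 and 8 members had such an interval in control 1, control 2, MTX 1, MTX 2 and IgG, beside 41.3%, 22.3%, 27.4%, 26.7% and 22.9% of all protein-coding genes.

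**Figure D2:**
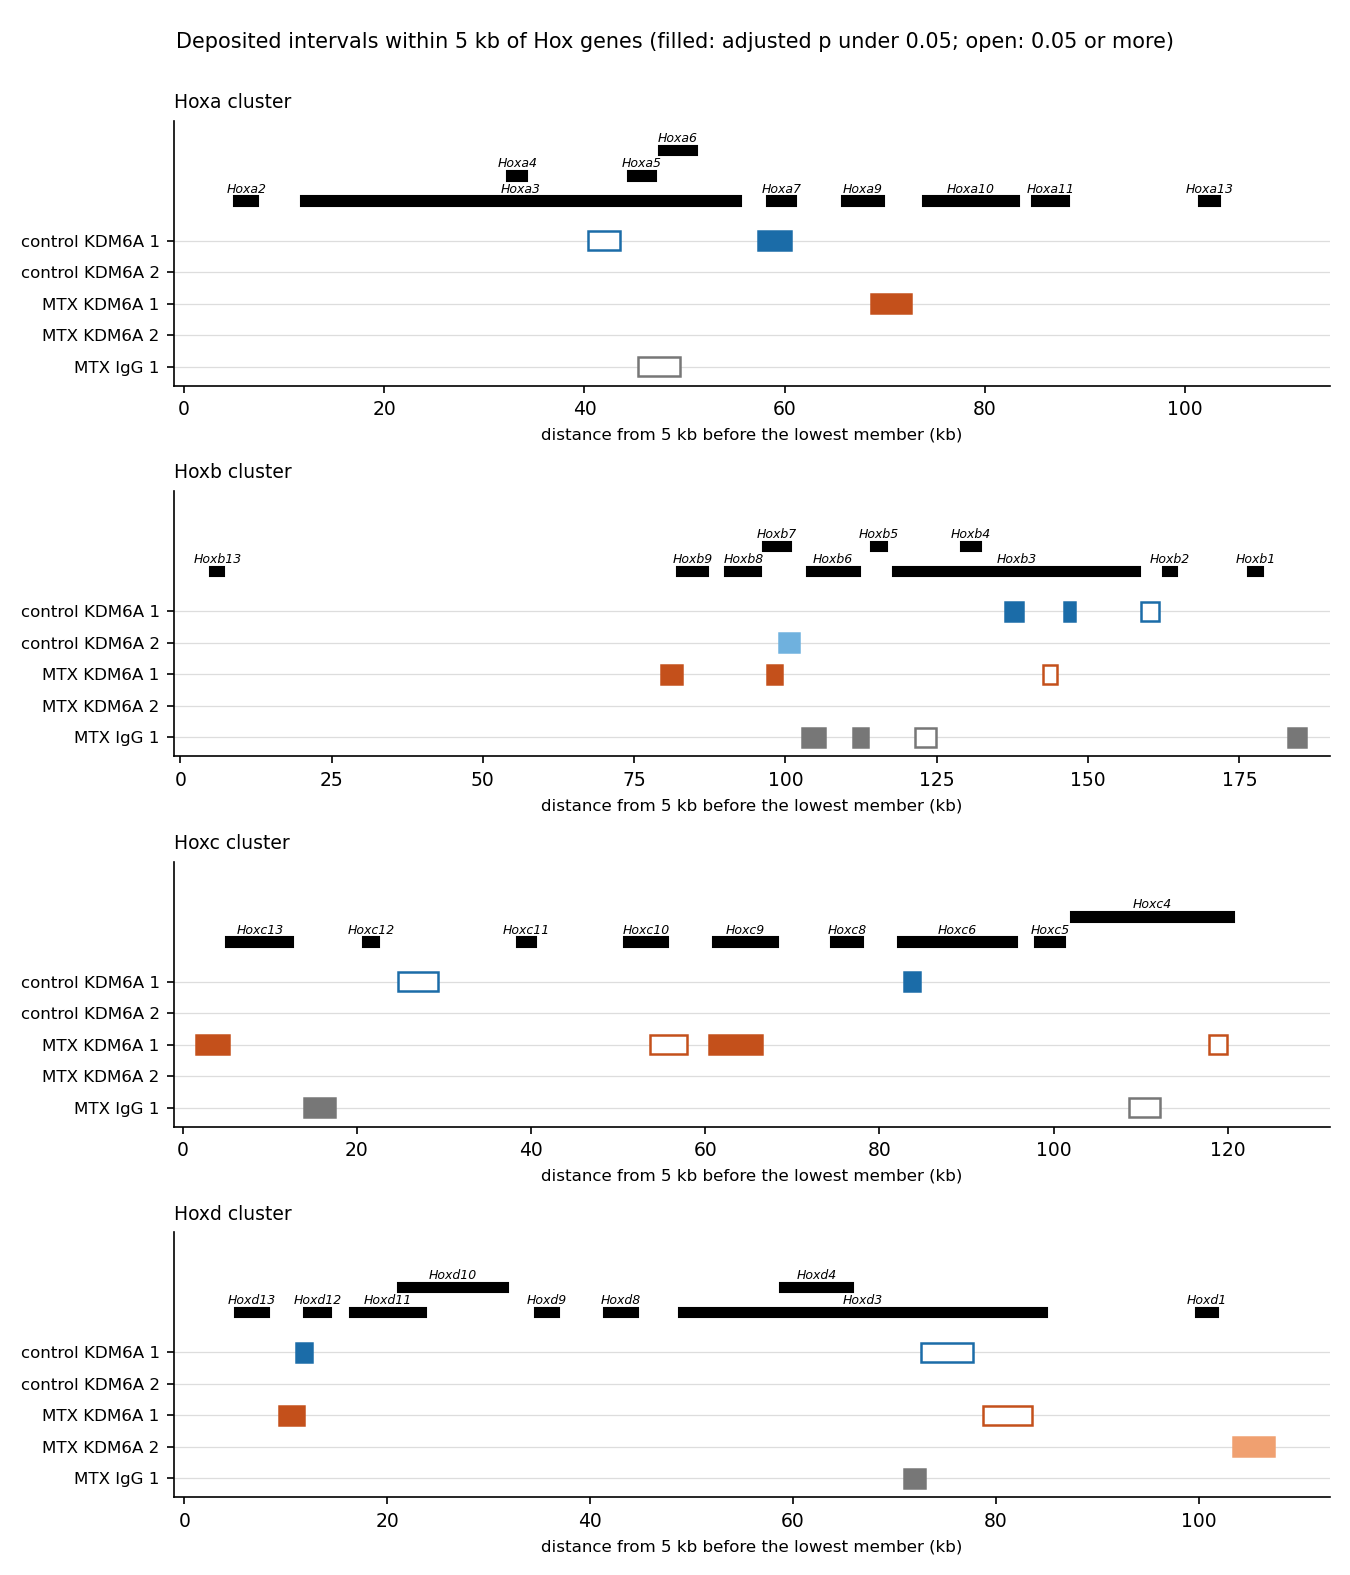
Each panel is 1 Hox cluster, with the distance in kb from 5 kb before its lowest member on the x axis, genes as black bars and 1 row per library below them; filled boxes are intervals with a deposited adjusted p under 0.05 and open boxes those above it. Of the 21 KDM6A intervals 19 lie in the rows of control 1 and MTX 1, and in 2 places intervals of different KDM6A libraries overlap.

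Hoxa carried 3 KDM6A intervals, all between Hoxa4 and Hoxa10, in the middle of the cluster. Members with an interval numbered 4 in control 1, 2 in MTX 1 and 3 in IgG, beside 50.9%, 34.0% and 29.4% of genes on chromosome 6, and 0 in control 2 and MTX 2, beside 25.8% and 33.9%. Shares by chromosome, here and for the other clusters, take genes of every length and were not matched to the short Hox genes. The clearest Hoxa interval was in MTX library 1 at 52226001 to 52230000 (mm10), from inside Hoxa9 towards Hoxa10. Hoxa9 (52223097 to 52227370), a regulator of blood progenitors and posterior axial identity, was overlapped at its start, and Hoxa10, needed for uterine and limb patterning, lay within 5 kb. This interval held 132 immunoprecipitated and 98 background reads, a fold of 1.45 (deposited adjusted p = 5.68e-05, Poisson test). Control library 1 had weaker intervals at 52197801 to 52201000, inside the long Hoxa3 span and near Hoxa5 and Hoxa6, with 91 against 101 reads and a fold of 1.19. Its second, at 52214801 to 52218000, overlapped Hoxa7 with 102 against 114 reads and a fold of 1.18, at a deposited adjusted p of 0.0499. Control 2 and MTX 2 had no interval here (0 of 10 members, which allows a share of up to 30.0%, counting error only). Hoxa2, Hoxa4, Hoxa11 and Hoxa13 had none in any library.

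The promoter of Hoxa9 (250 bases before to 50 after the start of its transcript) is shown because the MTX 1 interval covered all 300 of its bases. It lies on the minus strand at chr6:52227321-52227620 (RefSeq, GRCm38.p6, the build called mm10). Capitals mark CG dinucleotides, the sites of DNA methylation, of which it holds 4, and its GC content was 49.7%.
Hoxa9: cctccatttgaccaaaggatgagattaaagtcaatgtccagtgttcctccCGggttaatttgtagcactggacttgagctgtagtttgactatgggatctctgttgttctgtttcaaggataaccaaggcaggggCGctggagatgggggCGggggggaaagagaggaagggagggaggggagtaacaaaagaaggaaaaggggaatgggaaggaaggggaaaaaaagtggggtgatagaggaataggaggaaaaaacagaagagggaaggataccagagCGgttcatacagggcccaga

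Hoxb carried 7 KDM6A intervals, more than any other cluster, and both that exceeded a fold of 2 lay in it. At Hoxb9 (96271330 to 96276595), which acts in the thoracic skeleton, MTX library 1 had an interval at 96268801 to 96272200 with 121 immunoprecipitated against 56 background reads, a fold of 2.32. Only 4.50% of the intervals in that list had a lower p, and its deposited adjusted p was 2.97e-15 (Poisson test). The other 3 KDM6A libraries and IgG had no interval within 5 kb of Hoxb9. Inside the long span of Hoxb3, a hindbrain and branchial arch gene, control library 1 had an interval at 96335401 to 96337200 with 52 against 29 reads, a fold of 2.37 and an adjusted p of 4.92e-08. MTX library 1 had 98 against 92 reads 1200 bp away, at 96331801 to 96334200, a fold of 1.14. Hoxb3 was thus counted in both libraries from intervals that did not overlap. Control 1 also had 99 against 95 reads at 96325601 to 96328600, near Hoxb4, a gene of blood stem cells, a fold of 1.38 with an adjusted p of 0.00143. It had 80 against 92 reads, a fold of 1.15, at 96348001 to 96351000, over the noncoding RNA Hoxb3os and near Hoxb2.

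At Hoxb7 (96285604 to 96290163), intervals of a control and an MTX library overlapped. Control library 2 had its only Hox interval there, at 96288201 to 96291600, with 111 against 68 reads, a fold of 1.70 and a deposited adjusted p of 3.46e-07 (Poisson test). MTX library 1 had 100 against 75 reads at 96286201 to 96288800, a fold of 1.43 with an adjusted p of 0.00051. They shared 600 bp inside Hoxb7, and the windows of Hoxb8 and Hoxb6 were counted through the same intervals. Control 1 and MTX 2 had no interval at this place. An IgG interval began 400 bp beyond that of control 2, at 96292001 to 96295800 in Hoxb6, with 117 against 92 reads and a fold of 1.32 with an adjusted p of 0.00238. Hoxb13, set apart from the rest of the cluster, had no interval in any library, and Hoxb5 and Hoxb1 had intervals in IgG alone.

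In Hoxc, 4 of the 6 KDM6A intervals came from MTX library 1. Members with an interval numbered 3 in control 1, 4 in MTX 1 and 3 in IgG, beside 45.1%, 33.8% and 26.0% of genes on chromosome 15. The highest was at 102917601 to 102921400, at Hoxc13 (102921131 to 102928814), a gene of hair and nail formation, with 109 against 82 reads, a fold of 1.43 and a deposited adjusted p of 0.00034 (Poisson test). An interval of 6000 bp at 102976601 to 102982600 covered most of Hoxc9, a thoracic gene that shapes motor neuron columns. It was the widest at any Hox gene and held 175 against 164 reads, a fold of 1.14 with an adjusted p of 0.0456. The interval over the end of Hoxc10, at 102969801 to 102974000 and near Hoxc9, had 134 against 127 reads and a fold of 1.13. At Hoxc4 the interval at 103034001 to 103036000 held 76 against 77 reads, a fold of 1.06 with an adjusted p of 0.315, so reads there did not exceed the scaled background by the test. Control library 1 had 59 against 59 reads at 102999001 to 103000800 in Hoxc6 and within 5 kb of Hoxc8, both thoracic genes, a fold of 1.32 with an adjusted p of 0.0199. It had 89 against 124 reads, a fold of 0.949, at 102940801 to 102945400, which overlapped the end of Hotair, a noncoding RNA of the cluster, 2192 bp from Hoxc12. Hoxc11 and Hoxc5 had no interval in any library, and control 2 and MTX 2 had none in the cluster (0 of 9 members, which allows a share of up to 33.3%, beside 21.6% and 24.9% of genes on chromosome 15).

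The Hoxc4 promoter is shown as the one reached by the Hox interval of lowest fold in MTX 1. It lies on the plus strand at chr15:103034145-103034444, was covered in full, and holds 9 CG dinucleotides (capitals) at a GC content of 60.3%.
Hoxc4: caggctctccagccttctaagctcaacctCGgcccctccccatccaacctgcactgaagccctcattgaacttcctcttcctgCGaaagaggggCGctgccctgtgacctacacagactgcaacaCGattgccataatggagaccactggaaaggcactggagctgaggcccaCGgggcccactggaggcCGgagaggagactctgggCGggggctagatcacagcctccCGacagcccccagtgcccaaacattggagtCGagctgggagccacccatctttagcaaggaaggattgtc

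Hoxd held the other place where KDM6A libraries overlapped. Members with an interval numbered 4, 0, 4, 1 and 1 of 9 in control 1, control 2, MTX 1, MTX 2 and IgG, beside 51.1%, 27.9%, 36.2%, 33.7% and 30.8% of genes on chromosome 2. Between Hoxd13, a gene of digits and the genital bud, and Hoxd12, its neighbour in limb patterning (74675013 to 74677705), control library 1 had an interval at 74674201 to 74675800 with 56 against 55 reads. Its fold was 1.35 and its deposited adjusted p 0.0167 (Poisson test). MTX library 1 had 89 against 68 reads at 74672601 to 74675000, a fold of 1.40 with an adjusted p of 0.00157. They shared 800 bp just before the start of Hoxd12, where control 2, MTX 2 and IgG had no interval. Through them Hoxd13, Hoxd12 and Hoxd11 were each counted in both libraries, so 3 of the 5 members that control 1 and MTX 1 had in common rest on 1 pair of overlapping intervals.

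The promoter of Hoxd12 is shown because it is the Hox promoter under intervals of more than 1 library. All 300 bases lay under the control 1 interval and 238 under the MTX 1 interval. It is on the plus strand at chr2:74674763-74675062, with 13 CG dinucleotides (capitals) and a GC content of 55.0%.
Hoxd12: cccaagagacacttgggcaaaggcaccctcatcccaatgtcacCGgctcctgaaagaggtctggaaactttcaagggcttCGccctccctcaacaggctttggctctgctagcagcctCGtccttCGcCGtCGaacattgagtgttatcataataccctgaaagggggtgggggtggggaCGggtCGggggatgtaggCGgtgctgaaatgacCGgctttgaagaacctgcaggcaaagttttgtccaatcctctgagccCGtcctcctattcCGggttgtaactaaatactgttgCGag

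At Hoxd3, which takes part in neck vertebra formation and whose annotated span runs over Hoxd4, 3 libraries had intervals side by side. Control library 1 had 111 against 142 reads at 74735801 to 74741000, a fold of 1.03. MTX library 1 had 134 against 124 reads at 74742001 to 74746800, beginning 1000 bp further on, a fold of 1.16. IgG had 102 against 53 reads at 74734201 to 74736200, a fold of 2.00 with a deposited adjusted p of 4.64e-10 (Poisson test), the highest fold among the IgG intervals at Hox genes. It overlapped the control 1 interval by 400 bp. MTX library 2 had its single Hox interval in this cluster, at 74766601 to 74770600, 1459 bp beyond Hoxd1, with 125 against 102 reads, a fold of 1.37 and an adjusted p of 0.000471. Hoxd10, Hoxd9, Hoxd8 and Hoxd4 had no interval in any library.

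Folds at Hox genes lay below the list median in control 1, MTX 1, MTX 2 and IgG, and above it in control 2. Over the 9 intervals of control 1 the fold ran from 0.949 to 2.37 with a median of 1.19, beside a median of 1.62 over the list. Over the 10 of MTX 1 it ran from 1.06 to 2.32 with a median of 1.28, beside 1.43. The single folds of 1.70 in control 2 and 1.37 in MTX 2 compare with list medians of 1.39 and 1.50, and the 8 IgG intervals had a median of 1.37 beside 1.49. Hoxb folds, set beside intervals of chromosome 11 alone, had higher medians, 1.38 against 1.37 in control 1, 1.70 against 1.21 in control 2, 1.43 against 1.26 in MTX 1 and 1.38 against 1.28 in IgG. On the log2 scale the medians over all clusters were 0.25 in control 1, 0.77 in control 2, 0.35 in MTX 1 and 0.46 in MTX 2. The MTX values lay between the control values, and the difference in means was -0.11 (two-sided exact permutation test, p = 1.0).

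Ranked by deposited p, the typical Hox interval of control 1 had 84.9% of its list ahead of it and that of MTX 1 69.3%. Of these intervals, 1 of 9 and 2 of 10 were in the better 50% of the list. When every list was shortened to its best 21228 intervals, the length of the shortest, control 1 kept intervals at 1 member, Hoxb3, while MTX 1 had 14, IgG 9, control 2 3 and MTX 2 1. The 14 members of control 1 therefore rest almost entirely on the part of its list that lies beyond the length of the shortest list, whereas those of MTX 1, whose list of 24177 was shortened less, do not.

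**Figure D3:**
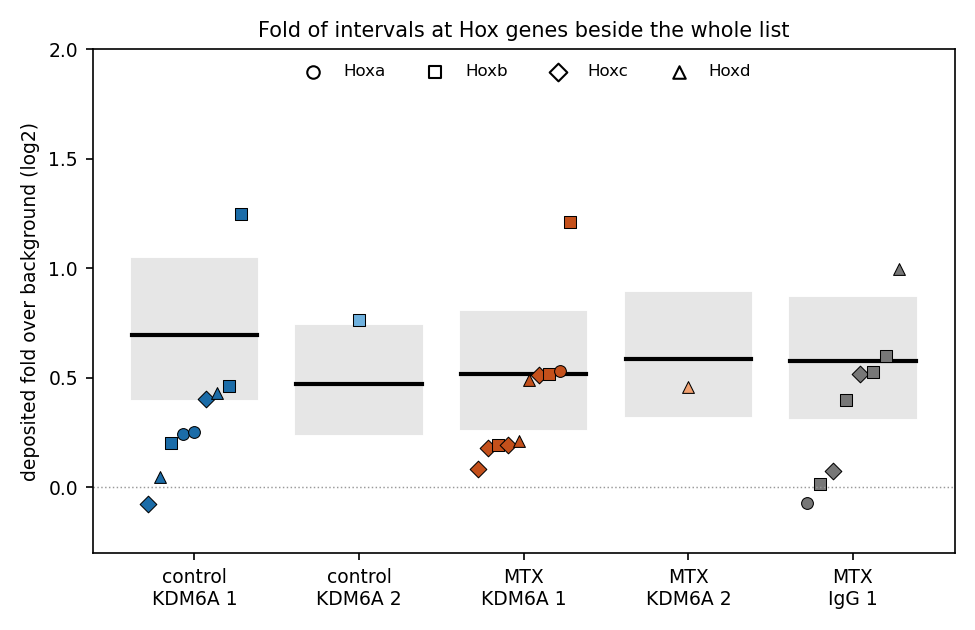
Points are the deposited folds over background (log2) of the intervals at Hox genes, with 1 shape per cluster; grey boxes run from the lower to the upper quartile of each whole list and the black line is its median. In control 1 and MTX 1 most points lie below the list median, and the 2 highest, 1.25 and 1.21, are Hoxb intervals.

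Hoxb differed from the other clusters in its surroundings. Of the bases in gene windows on chromosome 11, intervals covered 18.2% in control 1, 22.6% in control 2, 16.8% in MTX 1, 22.0% in MTX 2 and 15.6% in IgG. The Hoxb windows were covered over 6.64%, 2.89%, 7.15%, 0% and 9.07% in that order, lower than gene windows of the chromosome in each of the 5 libraries. By genes, 3, 3, 5, 0 and 6 of the 10 Hoxb members had an interval, beside 70.3%, 58.5%, 62.8%, 57.1% and 52.6% of the genes on chromosome 11. These chromosome 11 genes are of every length, whereas Hox genes are short. Hoxa windows were covered over 6.07% in control 1, 3.79% in MTX 1 and 3.98% in IgG, close to gene windows of chromosome 6 (6.49%, 3.81% and 3.85%), and over 0% in control 2 and MTX 2, beside 3.48% and 4.67%. Hoxc windows in MTX 1 had the highest cover, 13.4% against 3.56% on chromosome 15, with 6.01% in IgG against 3.38%. In control 1 they were covered over 3.85% against 5.39%, and in control 2 and MTX 2 over 0% against 2.66% and 3.75%. Hoxd windows were covered over 6.65% in control 1, 7.04% in MTX 1, 3.47% in MTX 2 and 1.96% in IgG, beside 6.95%, 4.58%, 5.17% and 4.59% on chromosome 2, and over 0% in control 2, beside 4.10%. The place of these values among gene windows was not tested.

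**Figure D4:**
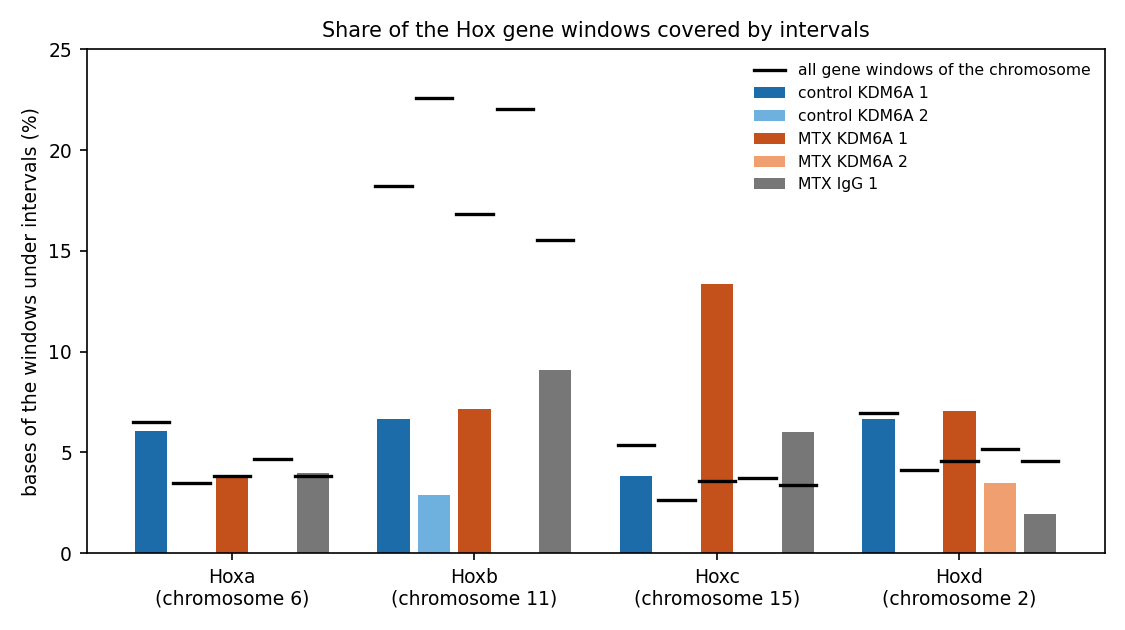
Bars give the percentage of bases in the Hox gene windows (gene span with 5 kb on each side) under intervals, by cluster and library; black lines give the same percentage over all protein-coding gene windows of that chromosome. All 5 Hoxb bars, from 0 to 9.07%, lie below the chromosome 11 lines at 15.6 to 22.6%.

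IgG intervals and KDM6A intervals lay in the same clusters but seldom at the same place. The IgG library had 8 intervals at Hox genes, of which 4 were in Hoxb, 2 in Hoxc and 1 each in Hoxa and Hoxd. Only 1 of the 21 KDM6A intervals overlapped one of them, that of control 1 at Hoxd3 (1 of 9, 11.1%, exact 95% interval 0.281 to 48.2%), beside 18.4% of the whole list. In MTX 1 it was 0 of 10, which allows a share of up to 30.0%, beside 24.9% of the list. Control 2 and MTX 2 had 1 interval each, which did not overlap IgG, beside list shares of 25.6% and 23.2%. By gene rather than by interval, 11 members (28.9%) had both an IgG and a KDM6A interval within 5 kb, beside 25.3% of all protein-coding genes. Besides those at Hoxd3 and Hoxb6 given above, IgG had called intervals at 96300401 to 96303000 in Hoxb6 (93 against 67 reads, adjusted p 0.000537) and 4147 bp from Hoxb1, at 96372401 to 96375400 (114 against 78 reads, 2.25e-05). In Hoxc it had 124 against 90 reads at 102930001 to 102933600, 1187 bp from Hoxc13, with an adjusted p of 0.000113. IgG folds at Hox genes ran from 0.953 in the interval over Hoxa5 and Hoxa6 to 2.00 at Hoxd3, a range like that of the KDM6A libraries. This was 1 IgG library, from MTX cells, and no IgG library from control cells was analysed here.

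Read counts could be compared between groups only where all 4 KDM6A libraries had an interval, and no such region lay at a Hox gene. In such regions each library's count sums the reads of its own intervals, so the bases counted can differ between libraries. Joining the 21 KDM6A intervals where they overlapped left 19 regions. A single library held 17 of these, and the other 2, at Hoxb7 and Hoxd12, were held by a pair. Over the genome 2132 regions were in all 4 libraries, and edgeR's quasi-likelihood test called 0 of them higher (0%) and 0 lower (0%) with MTX. In that test 73 had an unadjusted p under 0.05 and the smallest adjusted p was 0.998. limma called 0, and DESeq2 called 8 higher and 8 lower. The Hox genes had no row in these tests.

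Among 22 members with a promoter sequence in the RefSeq table (24 promoters), 3 had one under a KDM6A interval: Hoxa9, Hoxc4 and Hoxd12, shown above. Most of the 24 are of Hoxa and Hoxd, with only Hoxb8, Hoxb4 and Hoxb1 of Hoxb and only Hoxc4 of Hoxc. The interval at Hoxc4 had a deposited adjusted p of 0.315 (Poisson test). The 3 promoters under an interval hold 4, 9 and 13 CG dinucleotides. The 24 Hox promoters had a median of 14.5 and all 32851 promoters in the table a median of 7.0. At least 20 CG dinucleotides were found in 45.8% of the Hox promoters, among them Hoxa13 with 45 and Hoxd13 with 37. Over all promoters this share was 26.5%. None of the 3 under an interval reached 20, and 3 promoters are too few for a comparison. The IgG interval at Hoxa5 covered a promoter with 29. The sequence TGATNNAT, a form of the site that HOX and PBX proteins bind together, was searched on both strands, overlapping matches counted. It was found in 4 of the 24 Hox promoters (16.7%, against 8.85% of all promoters) and in none of the 3 under a KDM6A interval.

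The clusters also hold microRNA genes, which are given because 2 of the 6 lay under or beside an MTX 1 interval. Mir196a-2 (chromosome 15, 102973350 to 102973434) lay inside the MTX 1 interval at Hoxc10, whose fold was 1.13. Mir196b (chromosome 6, 52230081 to 52230165) lay 81 bp beyond the MTX 1 interval at Hoxa9. Mir196a-1, near Hoxb9, lay 3536 bp from an MTX 1 interval. Mir10a and Mir10b, next to Hoxb4 and Hoxd4, were at least 8327 and 9664 bp from any KDM6A interval. The miR-196 microRNAs are known to target Hox transcripts, and their mature 5′ arms share a seed (bases 2 to 8, in capitals), as do those of miR-10a and miR-10b. The sequences are from RefSeq.
mmu-miR-196a-5p: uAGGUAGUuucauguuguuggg
mmu-miR-196b-5p: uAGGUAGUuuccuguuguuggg
mmu-miR-10a-5p: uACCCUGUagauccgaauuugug
mmu-miR-10b-5p: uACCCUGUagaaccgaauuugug

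A list of 61 genes joined those that act with Hox proteins or control the clusters with 8 homeobox relatives. Together they were near genes at large in control 1, MTX 1 and IgG and below them in control 2 and MTX 2, without a test. Of the 61, 29 had an interval within 5 kb in control 1 (47.5%) and 10 in control 2 (16.4%). It was 19 in MTX 1 (31.1%), 13 in MTX 2 (21.3%) and 17 in IgG (27.9%), beside the shares over all genes given above. In all 4 KDM6A libraries intervals were found at 4 of the 61, Pbx3, Ezh2, Suz12 and Ctcf, and at 0 of the 38 Hox members, beside 13.2% of all genes. These 4 span 41018 to 200589 bp, far more than the Hox median of 3.72 kb. The Hox count could not exceed the 1 member with an interval in MTX 2.

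Among 9 Hox cofactors of the PBX, MEIS and PKNOX families, which bind DNA together with Hox proteins, 7, 3, 2, 4 and 3 had an interval in control 1, control 2, MTX 1, MTX 2 and IgG. For each gene the interval of lowest p in a library is given. Pbx3 had one in every library, at 1.91-fold in control 1, 1.59 in control 2, 1.73 in MTX 1, 4.19 in MTX 2 and 2.00 in IgG. The MTX 2 interval at Pbx3 (34177401 to 34178800 on chromosome 2, 71 against 19 reads) lay inside the IgG interval. Meis1 had folds of 2.33 in control 1, 2.03 in control 2, 3.03 in MTX 2 and 1.41 in IgG, at different sites. Meis2 and Pknox2 were in 3 KDM6A libraries each. Meis2 had folds of 1.44 in control 1, 1.35 in control 2, 1.99 in MTX 2 and 2.38 in IgG, with IgG highest. Pknox2 had 3.00 in control 1, 1.35 in MTX 1 and 1.11 in MTX 2, and no interval in IgG. The MTX 2 interval at Pknox2 had a deposited adjusted p of 0.112 (Poisson test). These 4 cofactor genes are long, from 139224 bp for Meis1 to 256364 bp for Pknox2, and the KDM6A intervals given lay at different places along them.

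Of 24 chromatin regulators, 14, 6, 11, 8 and 11 had an interval in the same order. Ezh2 and Suz12, the enzyme and a core subunit of Polycomb repressive complex 2, and Ctcf, which marks borders inside Hox clusters, had intervals in every library. Suz12, like Meis1 above, lies on chromosome 11, where 57.1 to 70.3% of genes had an interval in a given KDM6A library. Ezh2 had folds of 1.71 in control 1, 1.06 in control 2, 1.93 in MTX 1, 1.61 in MTX 2 and 1.39 in IgG, with IgG inside the range of KDM6A. Its control 2 interval overlapped that of IgG and had a deposited adjusted p of 0.242 (Poisson test). At Suz12 these folds were 1.40, 1.48, 1.56, 2.17 and 1.26, with IgG lowest, and at Ctcf 1.63, 1.67, 1.36, 1.21 and 1.75, with IgG highest. The MTX 1 interval at Suz12 lay inside the IgG interval. Most of the folds set beside IgG come from other places along the gene. Eed, another core subunit, had 1.42 in control 1, 1.31 in MTX 1 and 1.70 in MTX 2, and no interval in IgG.

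Retinoic acid signalling switches on Hox genes from the low-numbered end. Of its 14 genes, 7, 1, 3, 1 and 2 had an interval. Aldh1a2, which makes retinoic acid in the embryo, had folds of 1.80 in control 1, 1.22 in control 2, 1.63 in MTX 1 and 2.03 in IgG. Rarb and Rarg, its receptors, had 2.20 and 1.40 in control 1 and 1.90 and 0.986 in MTX 1, and Aldh1a3, a related enzyme, had 3.09 in control 1 alone. Of 6 upstream regulators, Egr2, a hindbrain factor that acts on Hox genes, had an interval in control 1 with a fold of 1.30, and the others had none in a KDM6A library. Of 8 homeobox relatives, Gsx1, Evx1 and Evx2 had intervals in MTX 1 alone, with folds of 1.24, 1.41 and 1.19. Evx1 and Evx2 lie next to the high-numbered ends of Hoxa and Hoxd.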

How the data were processed

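The submitters' processing notes name Bowtie2 and the build mm10. What called the intervals is not stated in any source used. The deposited lists have no header and were made per library. Their deposited read counts (immunoprecipitated and background) are whole, unscaled reads. Dividing them and multiplying by 1 constant per list (1.04 to 1.32) gives the deposited fold, a ratio, and the deposited p-value and adjusted p-value were read as those of a Poisson test. These column meanings were worked out from the values. Positions were turned to counting from 1. The inputs were not analysed here.

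Genes, promoters and microRNAs came from RefSeq tables of GRCm38.p6, the same build, matched by symbol (38 of 38 members), without exons. Overlap was at least 1 bp. Merged regions of all 4 KDM6A libraries with at least 10 reads in total were tested with edgeR 4.0.16 (quasi-likelihood, TMM, Benjamini-Hochberg over all regions), beside DESeq2 1.42.0 and limma 3.58.1 in R 4.3.3. The edgeR step was tested on simulated data. Single values were compared by exact permutation over libraries in Python 3.11.15. Shares have exact (Clopper-Pearson) 95% intervals, and for shares of 0 the limit is 3 counts of the total.

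Every Hox member is named, and regions with an adjusted p under 0.05 or in 2 or more KDM6A libraries are described in full. Up to 4 genes per role of the pathway list are named, by the number of KDM6A libraries and then the lowest p. Flanking genes are the nearest 2 on each side outside the Hox family. The members and lists were chosen with earlier results of these data known. Alternatives were another flank, an adjusted p under 0.05, no intervals over IgG, lists of equal length, a replicate block and leaving out each library. The count of members under 10 kb was chosen after seeing the data.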

Additional observations from a re-analysis of the deposited data

How the results depend on the processing

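Where 5 counts are given, they are for control 1, control 2, then MTX 1, MTX 2 and IgG. The 14, 3, 15, 1 and 13 members with an interval became 6, 1, 9, 0 and 7 with gene spans alone, 9, 3, 12, 1 and 8 at a deposited adjusted p under 0.05, and 1, 3, 14, 1 and 9 in lists of equal length. They stayed within 1.5 times of these counts with a 10 kb flank and without intervals over IgG. The difference between MTX and control cells, -0.5 members, turned to 1.0 with gene spans, 0.5 at an adjusted p under 0.05 and 5.5 in lists of equal length, and it was 0 without intervals over IgG. It ran from -7.5 (without MTX 1) to 6.5 (without MTX 2) when each library was left out, 5.0 without control 1 and -6.0 without control 2. The difference in covered bases, 5.07 kb, ran from -11.0 kb without MTX 1 to 21.1 kb without MTX 2, with 16.2 kb without control 1 and -6.04 kb without control 2. The difference in median log2 fold, -0.11, ran from -0.36 (without control 1) to 0.15 (without control 2) when each library was left out. It had no value with gene spans, since MTX 2 had no interval there. In lists of equal length it was -0.53, and the difference in covered bases was 16.0 kb. Both then had p = 0.333 (exact permutation test), the lowest that this test can reach. None of these is past a threshold that the design could reach. The share of control 1 intervals over IgG fell from 11.1% to 0% when at least 50% of the interval had to overlap and at an adjusted p under 0.05. Over regions of all 4 libraries, DESeq2 called 16 against 0 by edgeR, which called 3 without control 1, 1 without control 2 and 0 without either MTX library. No Hox region was in all 4 libraries, so the planned fold changes of Hox regions have no value.

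The labels do not say that a replicate number marks a shared culture or day, so the libraries share only a number. With a replicate block the difference was -0.5 members (exact sign-flip test, p = 1.0, which cannot go below 0.5 with 2 pairs), 5.07 kb and -0.11 on the log2 scale, and edgeR with the block called 0 regions. Deviations of control 1 and MTX 1 from their group means correlated at 0.13 over the 2132 regions, which is 1 pair of deviations.

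Depth limits these values: an interval at a Hox gene held 52 to 175 immunoprecipitated reads, and a library without an interval has no count there, so absence of an interval is not absence of KDM6A.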

Other observations

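Of the 16 nearest protein-coding genes outside the Hox family (2 on each side of each cluster), 16 had an interval in at least 1 KDM6A library, beside 61.6% of all protein-coding genes and 25 of the 38 Hox members (65.8%). Calcoco1 was counted through control 2 alone (adjusted p 0.248) and Smug1 through MTX 1 alone (0.0629, Poisson tests). Calcoco2 and Ttll6 shared their control 1 and MTX 2 intervals of lowest p. The 16 genes span 4892 to 295053 bp and were not matched to Hox genes in length. In all 4 libraries it was 4 of the 16, beside 13.2% of all genes. These were Skap2, an adaptor protein next to Hoxa, Skap1, its relative next to Hoxb, Lnpk, a protein of endoplasmic reticulum junctions beyond Evx2 next to Hoxd, and Gm50595 on the other side of Hoxd. Skap2 had folds of 1.87 in control 1, 1.95 in control 2, 1.88 in MTX 1, 2.18 in MTX 2 and 1.36 in IgG. In the same order Skap1 had 1.58, 1.52, 1.64, 1.61 and 2.49, and Lnpk had 1.38, 1.76, 1.32, 1.90 and 2.08, so that IgG was highest at both. Gm50595 had 1.95, 1.79, 2.18, 1.88 and 1.73, with IgG lowest. The spans of Skap2, Skap1, Lnpk and Gm50595, 153385, 295053, 64623 and 181944 bp, are longer than those of the Hox genes, whose median was 3.72 kb, and their part in the count was not tested. Control 2, with 3 Hox members, had intervals at 1, 1, 2 and 2 of the 4 flanking genes of Hoxa, Hoxb, Hoxc and Hoxd, and MTX 2, with 1 Hox member, at 2, 3, 0 and 3.

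At Lnpk the intervals of control 1 (74552401 to 74560000), control 2 (74551801 to 74556600) and MTX 1 (74554401 to 74559800) overlapped each other. That of IgG (74557001 to 74559600) overlapped control 1 and MTX 1 but not control 2, and that of MTX 2 (74568201 to 74570600) overlapped none of them. At Skap2 and Skap1 the intervals of lowest p lay apart.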
